A study of Populus tremula x Populus alba with 6 samples.

Results

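Plasma membrane intrinsic proteins (PIPs) are the aquaporins of the plant plasma membrane, channels that let water pass between the outside of a cell and its cytoplasm. They form tetramers and fall into the subfamilies PIP1 and PIP2. In heterologous expression systems PIP2 proteins usually conduct water well on their own, whereas many PIP1 proteins reach the plasma membrane and conduct water only together with a PIP2 partner. In growing shoot tissue PIPs are known for the water uptake that goes with cell expansion, and their transcripts often change in water deficit and on re-watering. The transcripts of 10 poplar PIP loci, 5 PIP1 and 5 PIP2, were examined out of the 32049 genes that were counted. The loci were taken from a list of identifiers with their subfamily. All 10 identifiers were present in the deposited counts and all 10 passed the filter on low counts, as did 24991 genes in all. The files pair no identifier with a gene name, so the assignment to subfamilies rests on that list.

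RNA was sequenced from the shoot apex, the growing tip with the shoot meristem and the youngest leaves, of 6 plants of the hybrid Populus tremula x Populus alba, clone 717-1B4. The control group (CTRL) held 3 wild-type plants. The other group (RNAi) held 3 plants of the same clone in which RNAi was directed at DDM1. DDM1 is a chromatin remodelling enzyme that helps keep plant DNA methylated. All 6 plants had 3 weeks of water deficit followed by 1 week of re-watering, in compost at 21 °C, 32% hygrometry and 16 h of light, with the same planting and harvest dates in both groups. Unstressed plants do not enter the comparison, which asks how PIP transcripts differed between the genotypes after the same drought and recovery. The design text calls the 3 of a group biological replicates. The labels used here do not say whether the RNAi plants belong to 1 transformed line or several, so that effects of a line and of the knock-down cannot be told apart.

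Gene counts summed to between 12399644 and 17165295 in a library, which was 86.9% to 88.3% of its reads. The level of DDM1 and tissue markers were not analysed here, since no table of gene names was used, and the knock-down rests on the labels. The 10 PIP loci together took 0.641%, 0.486% and 0.522% of the gene counts in CTRL 1, 2 and 3 and 0.568%, 0.513% and 0.412% in RNAi 1, 2 and 3. The smallest count of any PIP locus in any library was 85, with an exact 95% Poisson interval from 67.9 to 105, which holds counting error alone. Levels are given below as CPM, counts scaled to a library of 1000000 counts, with library sizes adjusted by edgeR's trimmed-mean (TMM) factors. CPM values are not corrected for transcript length, so they compare libraries for 1 locus, not loci with each other. Reads that map to more than 1 place, 3.43% to 3.88% of a library, were not assigned to any gene. How many of them came from each PIP locus was not measured. The level of a locus that shares sequence with another PIP copy is therefore uncertain, by an amount that is not known. In whole apices, fewer cells with a transcript and less of it per cell cannot be told apart.

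None of the 10 PIP loci was called changed between RNAi and CTRL. The threshold was an adjusted p under 0.05 in edgeR's quasi-likelihood test with Benjamini-Hochberg adjustment over all 24991 genes. That test called 1 gene in all, or 0.004% of those tested, and the lowest adjusted p of a PIP locus was 0.80. By DESeq2, limma-voom and the likelihood ratio test of edgeR, which called 0.124%, 0.008% and 0.244% of the genes they tested, 0 of the 10 loci were called as well. All 10 fitted values were lower in RNAi, with a median log2 fold change of -0.25, -0.23 over the PIP1 loci and -0.31 over the PIP2 loci. Over all tested genes the median was -0.00096, and 50.2% of them had a fitted value below 0. The 10 loci were measured in the same 6 libraries and several varied together, so they are not 10 separate observations of the genotype. With 1 library left out, the number of PIP loci with a fitted value below 0 was lowest without CTRL 1, at 6 of 10, and without RNAi 3, at 7 of 10. It was 9 of 10 without CTRL 2, CTRL 3 or RNAi 2 and 10 of 10 without RNAi 1.

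**Figure D1:**
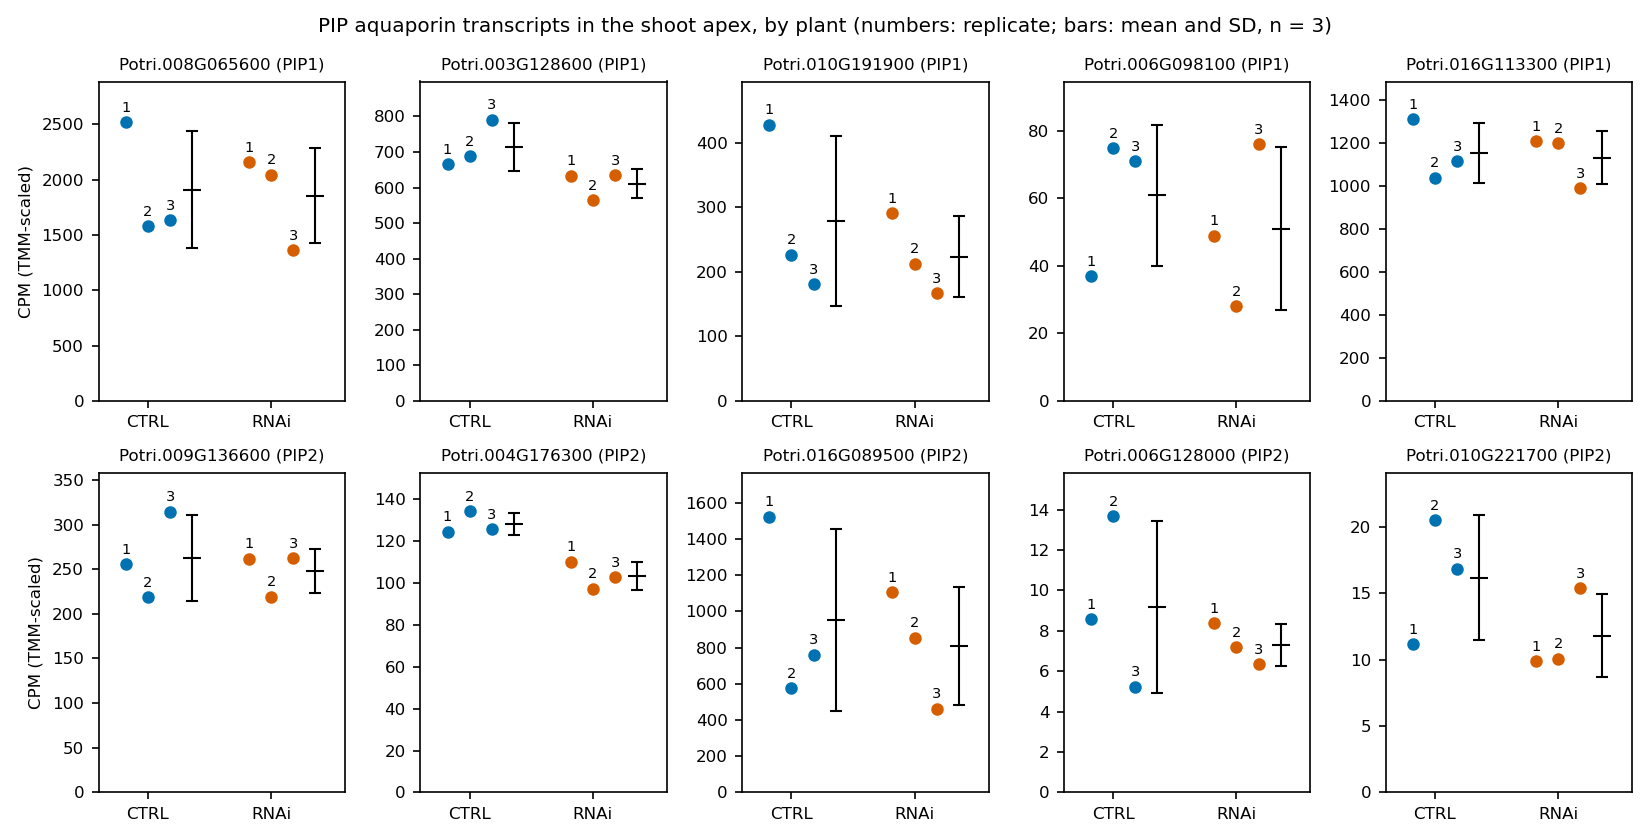
Level of each of the 10 PIP loci in CPM (TMM-scaled, linear axis from 0, a separate scale per panel) in every library, with CTRL in blue, RNAi in orange, the replicate number above each point, and the mean with its SD (n = 3) beside each group. The groups do not overlap for Potri.003G128600 and Potri.004G176300 and overlap for the other 8 loci.

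Among the PIP1 loci, Potri.008G065600 on chromosome 8 had levels of 2519, 1577 and 1633 CPM in CTRL 1, 2 and 3 and of 2158, 2042 and 1362 CPM in RNAi 1, 2 and 3. The highest library was a control and the lowest an RNAi plant, and the groups overlapped between 1577 and 2158 CPM. The fitted log2 fold change was -0.042 ± 0.28 (SE, n = 3 each), with a 95% interval of the fold from 0.624 to 1.51.

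Potri.016G113300, a PIP1 locus on chromosome 16, had the smallest range over the 6 libraries of the 10 loci. It had 1313, 1041 and 1117 CPM in CTRL and 1209, 1200 and 991 CPM in RNAi, so that the groups overlapped. Its fold between the genotypes was 0.980, with a 95% interval from 0.720 to 1.33.

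Potri.003G128600, a PIP1 locus on chromosome 3, was 1 of 2 PIP loci in which the groups did not overlap in TMM-scaled CPM. Its levels were 665, 687 and 791 CPM in CTRL and 634, 565 and 634 CPM in RNAi. All 3 RNAi plants lay below all 3 controls, though the lowest control was close to the highest RNAi plant. This separation depended on the scaling. With library size as the only scaling RNAi 3 lay above CTRL 1, at 0.0641% against 0.0620% of the gene counts, so that the groups overlapped. The means were 714 ± 67.1 CPM in CTRL and 611 ± 39.9 CPM in RNAi (SD, n = 3 each). The log2 fold change of -0.23 ± 0.17 (SE) did not pass the test (edgeR adjusted p = 0.82).

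Potri.010G191900, a PIP1 locus on chromosome 10, had 428, 227 and 181 CPM in CTRL and 291, 212 and 167 CPM in RNAi. CTRL 1 stood above all other libraries, and without it the fitted log2 fold change turned from -0.32 ± 0.34 to 0.14 ± 0.26 (SE). Potri.006G098100, a PIP1 locus on chromosome 6, had 36.9, 74.8 and 70.9 CPM in CTRL and 48.9, 28.1 and 76.1 CPM in RNAi. Its high libraries were CTRL 2, CTRL 3 and RNAi 3, which were the low ones at the PIP1 loci on chromosomes 8 and 16. Its log2 fold change was -0.26 ± 0.38 (SE) and turned to 0.035 without RNAi 2.

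Among the PIP2 loci, the difference that was largest relative to its error was that of Potri.004G176300 on chromosome 4. Its levels were 125, 134 and 126 CPM in CTRL and 110, 97.3 and 103 CPM in RNAi. The groups did not overlap, and the spread within each was small, at 128 ± 5.36 CPM in CTRL and 103 ± 6.48 CPM in RNAi (SD, n = 3 each). The log2 fold change of -0.31 ± 0.12 (SE), a fold of 0.807 with a 95% interval from 0.661 to 0.984, had an unadjusted p of 0.037 in edgeR and did not pass the threshold (edgeR adjusted p = 0.80). Of all tested genes 5.64% had an unadjusted p under 0.05, against this 1 of 10 PIP loci. With 1 library left out the log2 fold change of Potri.004G176300 stayed between -0.36 and -0.27, and its unadjusted edgeR p lay between 0.0486 and 0.0988. Groups without overlap in TMM-scaled CPM occurred in 11.8% of tested genes, 6.08% with RNAi lower and 5.75% with RNAi higher. Among the PIP loci they occurred in 2 of 10, both with RNAi lower. With library size as the only scaling the groups stayed apart at Potri.004G176300 and overlapped at Potri.003G128600, so the count of 2 depends on the scaling. The share over all genes was not taken with that scaling.

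Potri.009G136600, a PIP2 locus on chromosome 9, had 255, 219 and 314 CPM in CTRL and 262, 219 and 263 CPM in RNAi. The lowest value was the same in both groups to the nearest CPM, and the 95% interval of the fold ran from 0.708 to 1.26. Potri.016G089500, a PIP2 locus on chromosome 16, varied most between plants, with 1523, 577 and 760 CPM in CTRL and 1107, 855 and 463 CPM in RNAi. The 3.29-fold range between its highest and lowest library compares with a fold between the genotypes of 0.848, whose 95% interval ran from 0.431 to 1.67. Its fitted value turned to a log2 fold change of 0.28 without CTRL 1 and of 0.043 without RNAi 3.

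The remaining PIP2 loci had few counts. Potri.006G128000 on chromosome 6 had 99, 199 and 85 counts in CTRL and 116, 112 and 110 in RNAi, or 8.57, 13.7 and 5.23 CPM against 8.39, 7.18 and 6.34 CPM. The highest and the lowest library were both controls, so that CTRL spanned RNAi, and without CTRL 2 the log2 fold change turned from -0.33 ± 0.33 to 0.090 ± 0.28 (SE). Potri.010G221700 on chromosome 10 had 129, 298 and 274 counts in CTRL and 137, 157 and 267 in RNAi, or 11.2, 20.5 and 16.9 CPM against 9.90, 10.1 and 15.4 CPM. Its log2 fold change, -0.46 ± 0.26 (SE), was the one farthest from 0 among the 10 loci, and RNAi 3 lay within the range of the controls. It was -0.25 without CTRL 2 and -0.70 without RNAi 3 (edgeR adjusted p = 0.80 on all libraries).

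**Figure D2:**
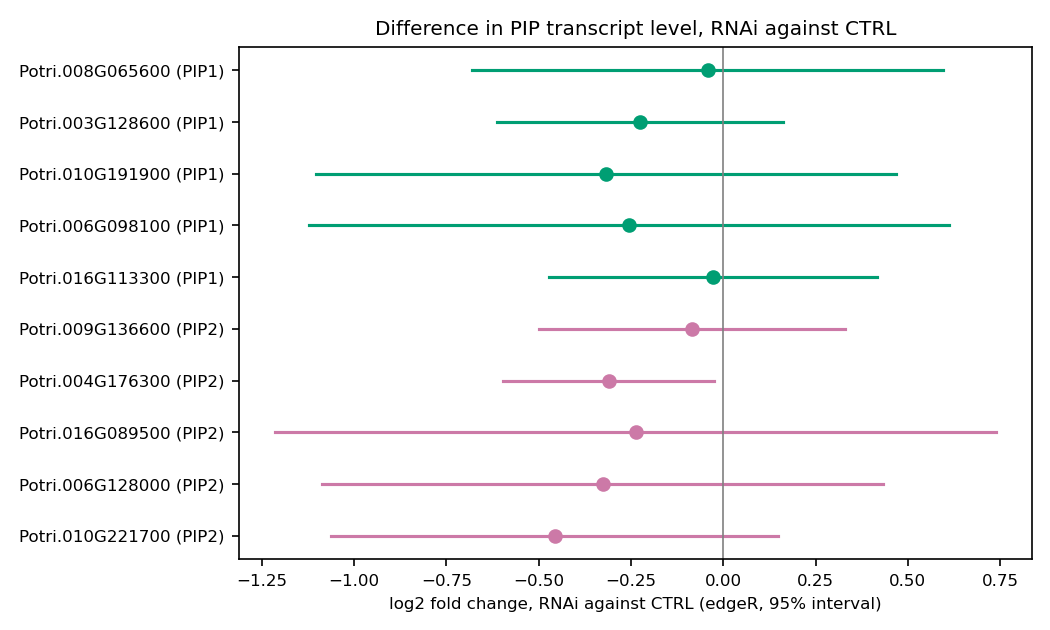
Fitted log2 fold change of RNAi against CTRL for each PIP locus (points) with its 95% interval from edgeR's quasi-likelihood fit (lines), PIP1 in green and PIP2 in pink. All points lie below 0 and all intervals but that of Potri.004G176300 include 0.

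These intervals bound the size of a difference that the 6 libraries leave possible at each locus. For none of the 10 did the interval reach a 2-fold higher level in RNAi, the highest upper bound being the 1.67-fold of Potri.016G089500. At 5 loci, Potri.008G065600, Potri.003G128600, Potri.016G113300, Potri.009G136600 and Potri.004G176300, the interval also stayed above a 2-fold lower level. At the other 5 its lower bound lay between 0.431-fold and 0.479-fold, so that a level under 0.5 of that in CTRL lay within the interval. The intervals are for 1 locus each and were not widened for the number of loci.

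Summed over subfamilies, PIP1 levels were 4961, 3606 and 3792 CPM in CTRL and 4341, 4048 and 3231 CPM in RNAi. The PIP2 sums were 1922, 965 and 1223 CPM in CTRL and 1497, 1189 and 850 CPM in RNAi. In both sums CTRL 1 was the highest and RNAi 3 the lowest library, and the groups overlapped. The PIP1 loci held 75.5 ± 3.41% of the reads on the 10 loci in CTRL and 76.9 ± 2.43% in RNAi (SD, n = 3 each). This share of reads, which is not corrected for length, was lowest in CTRL 1, at 72.1%, and highest in RNAi 3, at 79.2%. Potri.016G089500 held 22.1% of these reads in CTRL 1 and 11.3% in RNAi 3, with 16.6 ± 4.92% over CTRL and 15.5 ± 3.87% over RNAi (SD, n = 3 each).

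Several PIP loci varied widely between plants of the same genotype. The spread between replicates, as edgeR's biological coefficient of variation per gene, ranged from 0.138 for Potri.004G176300 to 0.360 for Potri.016G089500, with a median of 0.234 over the 10 loci. The median over the 19157 tested genes with a mean of at least 5 CPM was 0.165, and 8 of the 10 PIP loci lay above it. The ratio of the highest to the lowest library, taken across both genotypes, ran from 1.32 for Potri.016G113300 to 3.29 for Potri.016G089500. At 6 of the 10 loci it was above the median of 1.48 over those genes. A median has as many genes above it as below, and 6 of 10 is near that share.

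In Potri.008G065600, Potri.016G113300 and Potri.016G089500 the 6 libraries stood in the same order. From the highest to the lowest level it was CTRL 1, RNAi 1, RNAi 2, CTRL 3, CTRL 2 and RNAi 3. This order mixes the genotypes and is shared by loci of both subfamilies, 2 PIP1 and 1 PIP2. Of all tested genes, 62, or 0.248%, had this order of libraries. The loci were singled out for it after their values were seen, so the count of 3 in 10 is a description. The swing was unequal, with a ratio between CTRL 1 and RNAi 3 of 1.85 at Potri.008G065600, 1.32 at Potri.016G113300 and 3.29 at Potri.016G089500. With library size as the only scaling the order was the same at all 3 loci.

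**Figure D3:**
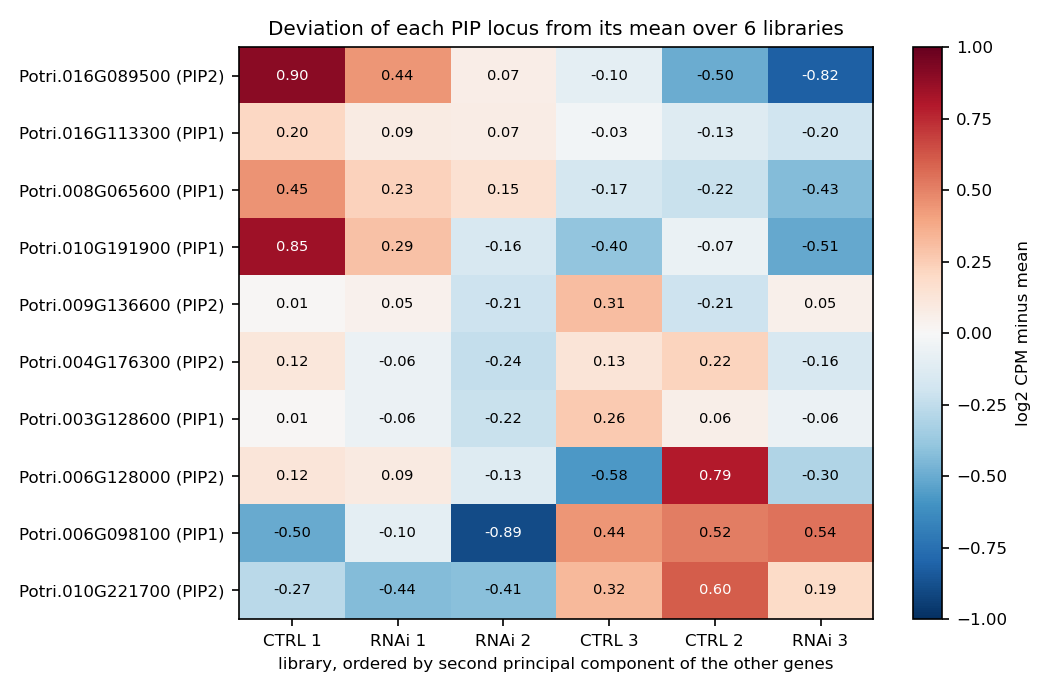
Deviation of log2 CPM (prior count of 2) of each PIP locus from its own mean over the 6 libraries, with red above and blue below the mean and the value in each cell. Libraries are ordered by their score on the second principal component of the other tested genes, and loci by their correlation with it. Along this order Potri.016G089500 goes from 0.90 in CTRL 1 to -0.82 in RNAi 3, while Potri.006G098100 goes from -0.50 to 0.54.

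The same order of libraries was that of their scores on a principal component. On the second principal component of log2 CPM over the 24981 tested genes other than the PIP loci, with 28.6% of the variance, the scores were -44.1 in CTRL 1, -19.0 in RNAi 1, -6.91 in RNAi 2, 1.14 in CTRL 3, 34.3 in CTRL 2 and 34.6 in RNAi 3. This component did not part the genotypes, each of which had plants toward both ends. CTRL 2 and RNAi 3 had nearly the same score, so the order of these last libraries on it is close to a tie. On the first component over all tested genes, with 35.4% of the variance, the scores of the genotypes did not overlap. They were -14.6, -17.4 and -34.2 in CTRL and -6.49, 63.7 and 8.88 in RNAi. RNAi 1 lay nearer to CTRL 1 there than to any other RNAi plant. RNAi 2, which stood apart there, was also the lowest library at Potri.003G128600 and Potri.004G176300, the loci whose groups did not overlap in TMM-scaled CPM. Without RNAi 2 their log2 fold changes were -0.17 and -0.27. Leaving out the lowest library of the lower group cannot make the groups overlap, so the separation there was fixed in advance. Over the 6 libraries, as a description, Pearson's r with the second component was -0.95 for Potri.008G065600, -0.98 for Potri.016G113300 and -0.98 for Potri.016G089500. Spearman's rho was -1 for each. Without CTRL 1 and RNAi 3, the 2 libraries farthest from the median score on this component, r was -0.85, -0.96 and -0.97. CTRL 2, with a score of 34.3, stayed in and lay far from the others that were left, so these values rest largely on it. An absolute r over the 6 libraries at least as high as the lowest of the 3 loci was found in 1.25% of all tested genes.

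At the other PIP loci the absolute r with the second component over the 6 libraries was lower, at most 0.81. Potri.010G191900 had an r of -0.81 with it, which was -0.33 without the 2 farthest libraries and so rests on them. Potri.010G221700 and Potri.006G098100 went the other way, with r of 0.76 and 0.72, and 0.89 and 0.59 without those 2 libraries. For Potri.003G128600, Potri.004G176300, Potri.009G136600 and Potri.006G128000, r lay between -0.17 and 0.14 over the 6 libraries. Without the 2 farthest libraries it was 0.35, 0.75, -0.36 and 0.65 in that order, so that the value at these loci depends on which libraries enter.

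**Figure D4:**
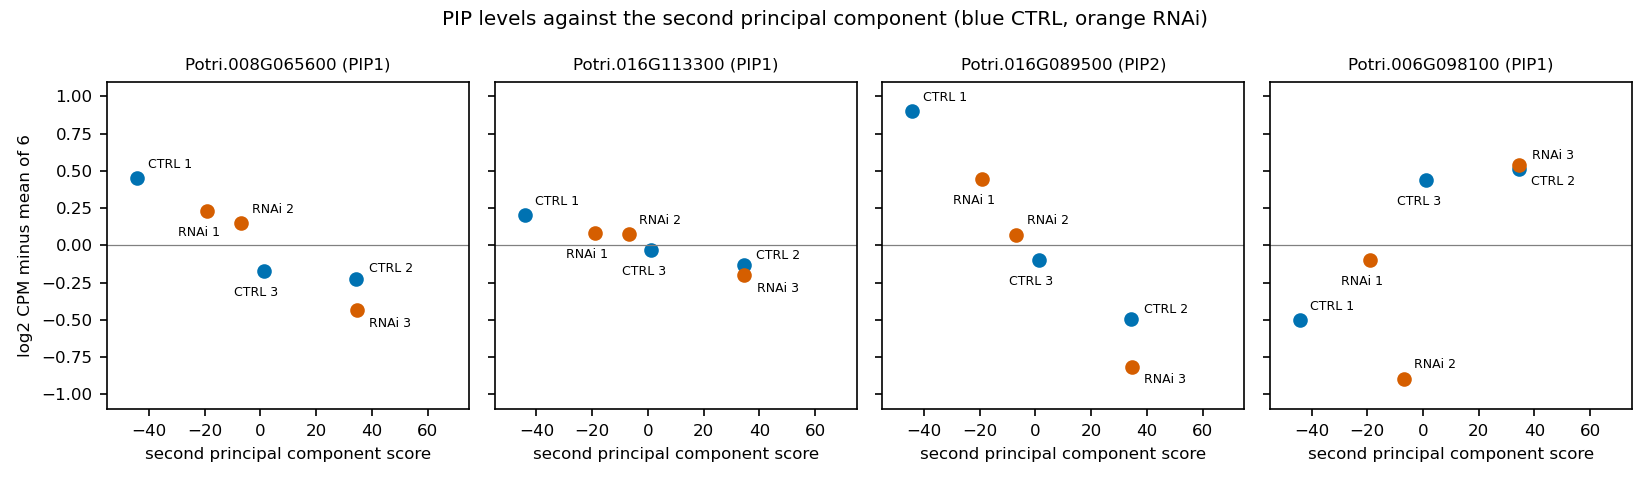
Deviation of log2 CPM from the mean over 6 libraries (vertical axis) against the score on the second principal component of the other tested genes (horizontal axis) for 4 PIP loci, with CTRL in blue and RNAi in orange. Levels go down along the axis at Potri.008G065600, Potri.016G113300 and Potri.016G089500 (r = -0.95, -0.98 and -0.98 over 6 libraries), and Potri.006G098100 goes the other way (r = 0.72).

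Measures of the libraries moved with this order in part. The lowest libraries at these 3 loci, CTRL 2 and RNAi 3, had the lowest shares of reads assigned to genes, 86.9% and 87.8%, against 88.1% to 88.3% in the other 4. From the highest library down, the TMM factor was 0.933 in CTRL 1, 0.974 in RNAi 1 and 0.981 in RNAi 2. It was then 1.04 in CTRL 3, 1.07 in CTRL 2 and 1.01 in RNAi 3, the lowest library. The highest library, CTRL 1, had the fewest gene counts, 12399644, and the lowest, RNAi 3, the most, 17165295. Between them the order was not kept, with 15926882 in RNAi 2 and 13664046 in CTRL 2. The share of reads that map to more than 1 place was 3.88% in both CTRL 1 and RNAi 3, and so did not follow the order. The part of these in the order of libraries was not tested, beyond the order being the same without the factors.

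Among the 45 pairs of PIP loci, Pearson's r of log2 CPM over the 6 libraries was positive in 26 and negative in 19, with 7 above 0.8 and 2 below -0.8. The highest were those among the 3 loci in the same order, 0.98 between Potri.008G065600 and Potri.016G113300, 0.98 between Potri.016G113300 and Potri.016G089500 and 0.97 between Potri.008G065600 and Potri.016G089500. The lowest were those of Potri.006G098100 with Potri.008G065600 and with Potri.016G113300, both -0.81. Potri.003G128600 and Potri.004G176300, the loci with all RNAi plants below all controls in TMM-scaled CPM, had an r of 0.78. Picking loci for that shared separation favours a positive r, so this value adds nothing to it. The points of each pair share library, depth and scaling, and the values are given as a description.

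The genes whose profile over the 6 libraries was most like that of the PIP1 locus with the highest mean CPM, Potri.008G065600, were Potri.002G178300 (r = 0.999), Potri.001G369500 (r = 0.997) and Potri.013G048000 (r = 0.996). For the PIP2 locus with the highest mean CPM, Potri.016G089500, they were Potri.006G138800 (r = 0.997), Potri.004G117900 (r = 0.994) and Potri.006G117900 (r = 0.990). Likeness was Pearson's r of log2 CPM over 6 libraries among the 15685 tested genes with a mean of at least 10 CPM, of which 80 and 85 had an r above 0.95. Their swing differed as it did among the PIP loci. Potri.006G138800 went from 39.8 CPM in CTRL 1 to 6.46 CPM in RNAi 3, and Potri.001G369500 from 29.8 to 23.2 CPM. None of the 6 was called changed between the genotypes, with edgeR adjusted p between 0.87 and 0.999.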

How the data were processed

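Paired-end, strand-specific libraries of polyadenylated RNA were prepared by the TruSeq stranded mRNA method, per the labels' protocols. The deposited values are raw counts per gene, 1 file per library, without regard to strand and on the forward and the reverse strand, per the file headers. The submitters' processing notes name STAR, without a version. Genome build and annotation: not given in the sources used here. The reverse column was used, where this kit places sense reads. The summary lines, which name no gene and held 11.7% to 13.1% of the reads, stayed out of library sizes and tests. RNAi was compared with CTRL, 3 libraries each, over all genes that passed filterByExpr with edgeR 4.0.16 (R 4.3.3, TMM factors, robust quasi-likelihood F test, two-sided). The standard error of a log2 fold change is its size over the root of F, and 95% intervals use the fit's degrees of freedom. The fit was tested on simulated data. Alternatives were DESeq2 1.42.0, the likelihood ratio test, limma 3.58.1 with voom, other factors, filters and count column, a replicate block and leaving out each library, and, chosen after seeing the data, 1 surrogate variable (sva 3.50.0). No library was a duplicate of another (chi-square of paired counts 7.96 to 39.1 times its degrees of freedom). All 10 loci are named, with the 3 genes most like the PIP1 and the PIP2 locus of highest mean CPM. The members, lists and tests were chosen with earlier results of these data known. Lists of other aquaporins and of drought and abscisic acid genes, which needed gene descriptions, were not analysed here.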

Additional observations from a re-analysis of the deposited data

How the results depend on the processing

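No PIP locus was called under any of the 17 alternatives, whose lowest adjusted p for a PIP locus was 0.62 (edgeR, without CTRL 1). The number of genes called over all tested genes was 1 in the report, 37 with DESeq2, 61 with the likelihood ratio test, 2 with limma-voom and 0 with library size only, at least 1 CPM in 3 libraries or 1 surrogate variable. It was 0 to 7 with 1 library left out. With the replicate block it was 0, and the median log2 fold change of the PIP loci was -0.23. Same-numbered libraries correlated by 0.237, -0.0182 and -0.025 in their deviations from the means of their groups. Libraries of unlike number in the 2 groups correlated by -0.405 to 0.416. With 3 plants per group these values cannot decide whether the replicate numbers pair the plants. Outside the fits with 1 library left out, all 10 fitted values stayed below 0 in each alternative. The surrogate variable moved that of Potri.006G098100 from -0.26 to -0.021, that of Potri.010G221700 from -0.46 to -0.27, that of Potri.016G089500 from -0.24 to -0.44, that of Potri.008G065600 from -0.042 to -0.18 and that of Potri.016G113300 from -0.029 to -0.098. Upper-quartile factors and library size only gave -0.070 and -0.064 for Potri.008G065600 and -0.059 and -0.058 for Potri.016G113300. These settings also moved the median over all tested genes, to -0.032 and -0.036 from -0.00096, so such a shift is not particular to these loci. Limma-voom gave -0.22 for Potri.006G128000, against -0.33. With 1 library left out log2 fold changes ranged from -0.16 to 0.22 for Potri.008G065600, -0.55 to 0.14 for Potri.010G191900, -0.66 to 0.035 for Potri.006G098100, -0.099 to 0.077 for Potri.016G113300, -0.20 to 0.064 for Potri.009G136600, -0.53 to 0.28 for Potri.016G089500 and -0.61 to 0.090 for Potri.006G128000. Those of Potri.003G128600 (-0.27 to -0.15), Potri.004G176300 and Potri.010G221700 kept their direction. The causes were not tested. Alternatives for annotated gene lists and for levels per length were not run. The precision is limited by 3 plants per group, as the printed intervals show.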

Other observations

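Counts on the strand opposite to the PIP loci, which the comparison does not use, were few. They made up between 0.0333% (Potri.016G089500) and 1.64% (Potri.010G221700) of the counts on both strands, against 1.59% to 1.82% over all genes of a library. Of the 10 loci, Potri.008G065600 and Potri.016G113300 had enough such counts to be tested among 1725 genes. Potri.008G065600 had 45, 25 and 27 in CTRL and 24, 20 and 12 in RNAi (edgeR adjusted p = 0.79), and Potri.016G113300 had 31, 25 and 45 in CTRL and 17, 42 and 31 in RNAi (adjusted p = 0.98).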
